A study of Caenorhabditis elegans with 12 samples.

Results

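The effect of heme supply on gene expression was measured in wildtype Caenorhabditis elegans by comparing animals given 20 µM heme with animals given 4 µM heme. The comparison rests on 6 of the series' 12 Affymetrix arrays, 3 wildtype arrays at each concentration, chosen by the genotype and heme concentration in their labels. The other 6 arrays hold hrg-2 mutants at the same concentrations, 3 at each, and all animals were in the later part of L4, the larval stage before adulthood. The labels name no strain, hrg-2 allele or tissue. Nothing in them shows that the 3 arrays of a group are from separate cultures, so p-values may reflect technical spread between samples alone. Total RNA was labelled as biotin cRNA, and 1 log2 expression value per probe set and array was deposited.

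Heme, the iron porphyrin held by catalases, cytochromes and globins, cannot be made by C. elegans, which lacks the enzymes of its synthesis and takes it from food. The intestine is the site of uptake. HRG-4 brings heme across the intestinal plasma membrane, HRG-1 moves it out of endolysosomal compartments, MRP-5 exports it to other tissues, HRG-3 is secreted and carries heme from the mother's intestine to embryos, and HRG-7 is a secreted aspartic protease-like protein that signals heme status between tissues. HRG-9 and HRG-10 belong to the TANGO2 family, which is linked to heme mobilisation. The name hrg stands for heme-responsive gene. HRG-2, mutated in the other arrays, is a membrane protein of the hypodermis with a role in heme use.

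Of 22548 probe sets tested, 15 (0.0665%) passed an adjusted p of 0.05, by limma with the array number as a block and Benjamini-Hochberg adjustment over all of them, and 689 had an unadjusted p under 0.05. Lower values at 20 µM were found for 14 of the 15 (0.0621% of those tested) and a higher value for 1 (0.00443%). The 15 probe sets belong to 13 genes and 1 probe set without a gene. The genes that fell were hrg-1, hrg-3, hrg-4, hrg-7, mrp-5, math-14, R193.2, gsto-1, cpr-8, tag-10, ctsa-4.1 and Y54G11A.7, and the gene that rose was dod-24. The 3 arrays at 20 µM did not overlap the 3 at 4 µM for 14 of the 15, and the 3 same-numbered pairs of arrays changed in 1 direction for all 15. Across all probe sets, groups that did not overlap, with 3 pairs changing in 1 direction, were found for 912 probe sets lower at 20 µM (4.04%) and 596 higher (2.64%). The calls were made from these same values. Non-overlap and pair direction therefore largely follow from the calling and are not separate support for the 15. Without the block 8 probe sets passed, all of them lower. The RNA held markers of many tissues, as given below by list, and fewer cells of a type and less RNA per cell cannot be told apart.

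**Figure D1:**
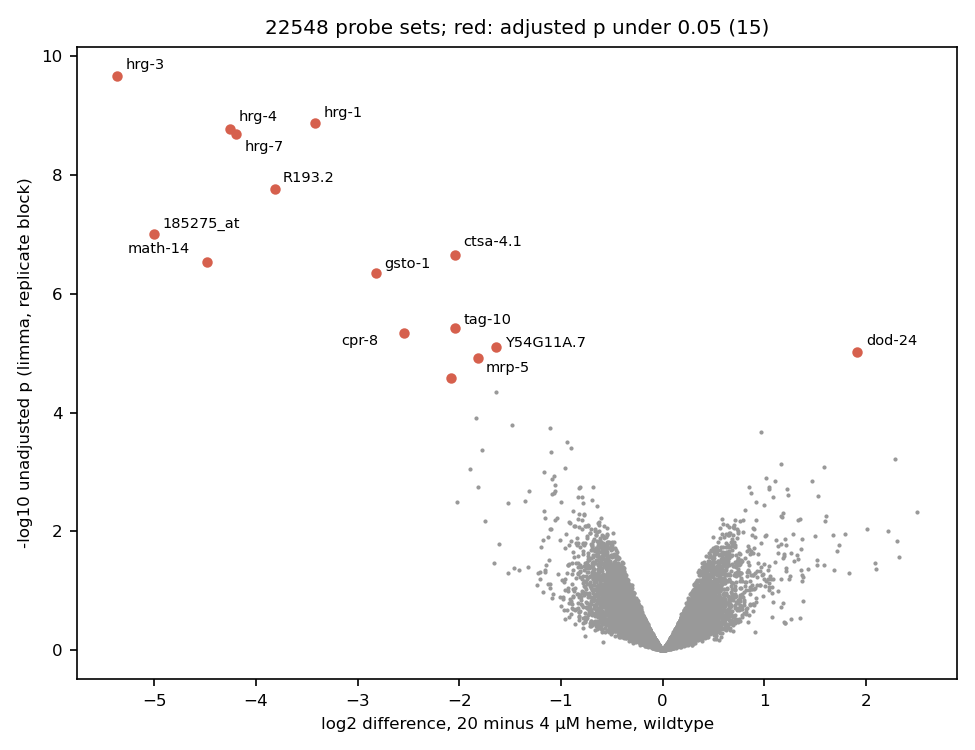
Log2 difference between 20 and 4 µM heme in wildtype (horizontal axis) against -log10 of the unadjusted limma p (vertical axis) for 22548 probe sets, with the 15 past an adjusted p of 0.05 in red and named by gene. The 14 lower probe sets lie to the left, from hrg-3 at -5.36 to Y54G11A.7 at -1.63, and dod-24 at 1.92 is the 1 higher probe set; the red point without a name is the second probe set of tag-10.

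The arrays numbered 3 stood apart from those numbered 1 and 2 in both groups. Array medians were alike, between 5.83 and 5.94, but the wildtype arrays numbered 3 correlated with those numbered 1 and 2 at r from 0.905 to 0.948 across probe sets and with each other at 0.982. On array 3 sperm genes lay higher by a median of 2.37 log2 units at 4 µM and 2.14 at 20 µM over 69 genes, and oocyte and eggshell genes by 0.95 and 1.01 over 23. The block holds an effect for each array number, fitted over the wildtype and mutant arrays together. It takes up what both genotypes share, and the rest enters the error, so the mutant arrays bear on the wildtype errors. In wildtype these sperm, oocyte and eggshell offsets were alike at both heme levels. Other offsets were not alike: vitellogenins, yolk proteins of the adult intestine, lay lower on array 3 at 4 µM (-1.23) and higher at 20 µM (0.80), hypodermal genes shifted by -0.40 and 0.43, and heat-shock genes by 0.00 and -0.46. Left without the arrays numbered 3, the comparison gave 92 probe sets past the threshold, described further below. With 3 arrays a group, the precision of all values is limited.

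Among the heme importers, hrg-4 (probe set 179525_at) had log2 values of 8.91, 9.21 and 8.10 on the arrays numbered 1, 2 and 3 at 4 µM, and 5.00, 4.67 and 3.79 at 20 µM. Both groups had their lowest value on array 3, and the groups lay more than 3 log2 units apart. The difference was -4.25 ± 0.20 (SE), or 19-fold, and its adjusted p by limma was 1.17e-05. The endolysosomal transporter gene hrg-1 (186182_s_at) had log2 values of 10.72, 10.65 and 9.59 at 4 µM and 7.30, 7.31 and 6.10 at 20 µM. Here too array 3 was about 1 log2 unit below the others at each concentration, while the 3 pairs differed by -3.42, -3.34 and -3.49. The fitted difference for hrg-1 was -3.42 ± 0.16 (SE), or 10.7-fold, and its adjusted p by limma was 1.17e-05 with the block. Its adjusted p was 0.101 in the fit without the block, in which the shift of array 3 enters the error.

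Among the secreted factors, hrg-3 (177544_at) had log2 values of 8.21, 8.35 and 7.48 at 4 µM and 2.98, 2.59 and 2.38 at 20 µM. It fell most of all probe sets tested, by 5.36 ± 0.20 on the log2 scale (difference -5.36, SE; adjusted p 4.85e-06 by limma), which is 41.2-fold. The values at 20 µM lay near the 5th percentile of their arrays, 2.37 to 2.52 over the 6 wildtype arrays, so the floor of the signal limits this fold. The other secreted factor, hrg-7 (190619_at), was among the brighter probe sets at 4 µM, with log2 values of 12.42, 12.42 and 12.32. At 20 µM it stood at 8.33, 8.38 and 7.88, still well above the array medians. Its difference was -4.19 ± 0.20 (SE), 18.3-fold (adjusted p 1.17e-05 by limma). Its values spread less within groups than those of hrg-1 or hrg-4.

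The exporter gene mrp-5 has 2 probe sets, which fell to different sides of the threshold. The probe set 174713_at, which has the higher mean over the 12 arrays and therefore stands for the gene in the lists, had log2 values of 9.53, 9.67 and 9.71 at 4 µM and 8.31, 8.21 and 7.95 at 20 µM. The groups did not overlap, and the difference of -1.48 ± 0.25 (SE) had an adjusted p of 0.201 by limma. On the 6 wildtype arrays the second, 189403_s_at, was on average the slightly brighter one, with 9.98, 10.45 and 9.22 at 4 µM and 8.70, 8.32 and 7.17 at 20 µM. It fell by 1.82 ± 0.22 on the log2 scale (difference -1.82, SE) and its adjusted p by limma was 0.0193 with the block, and 1 without it. The call ended on leaving out any single wildtype array, number 1 or number 2 (adjusted p 0.0554 to 1).

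The TANGO2 family genes did not pass. The log2 values of hrg-10 (182240_at) were 7.91, 7.87 and 8.42 at 4 µM and 7.54, 7.74 and 7.04 at 20 µM, groups that did not overlap, with a difference of -0.62 ± 0.26 (SE) and an adjusted p of 1 by limma. For hrg-9 (173404_s_at) the values were 7.36, 7.36 and 8.37 at 4 µM and 6.61, 6.76 and 7.37 at 20 µM. These groups overlapped by array 3 of the 20 µM group, while each of the 3 pairs was lower at 20 µM. The difference was -0.78 ± 0.39 (SE). At 4 µM array 3 was the highest in wildtype but the lowest in the mutant (8.49, 7.97 and 7.24). On the 6 wildtype arrays alone the SE for hrg-9 was 0.17, and the adjusted p by limma was 0.45. A second, dimmer probe set of hrg-9, 177253_at, had 6.98, 7.47 and 7.79 at 4 µM and 6.89, 6.84 and 6.64 at 20 µM. Its groups did not overlap, and it differed by -0.62 ± 0.38 (SE) without passing. In all, 7 of the 11 genes listed for heme trafficking have a probe set of their own: 4 fell, beside 0.0621% of all probe sets, 3 did not pass (mrp-5 among them, by 174713_at), all 7 differences were negative, and their median was -3.42 beside -0.0049 over all probe sets. The list holds genes known for their response to heme, so it is not independent evidence of direction. Genes hrg-2, hrg-5, hrg-6 and hrg-8 have no probe set of their own in the annotation, and 5 further measured genes with an hrg symbol differed by -0.12 to 0.21, with none passing.

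**Figure D2:**
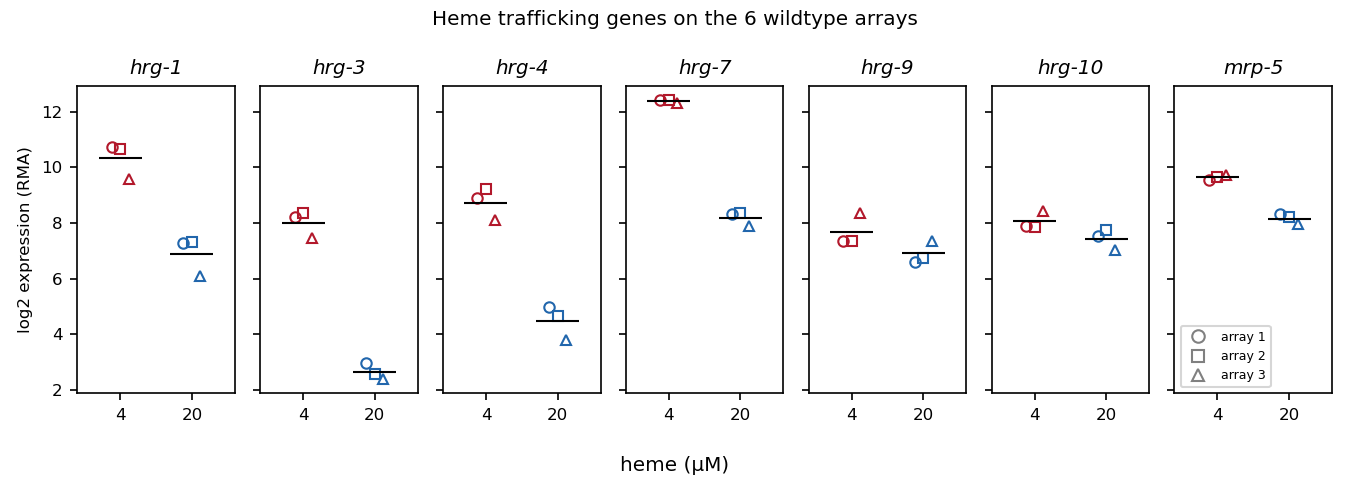
Log2 expression (vertical axis) of the 7 measured heme trafficking genes on the 6 wildtype arrays at 4 µM (red) and 20 µM heme (blue); each point is 1 array, its shape gives the array number and the bar is the group mean. The groups lie far apart for hrg-1, hrg-3, hrg-4 and hrg-7, by 3.42 to 5.36 log2 units, and closer for mrp-5 (1.48), hrg-9 (0.78, overlapping) and hrg-10 (0.62).

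Outside that list, math-14 (182492_at), a gene of the MATH domain family, had log2 values of 6.84, 7.25 and 8.40 at 4 µM and 2.99, 2.92 and 3.15 at 20 µM. Its array 3 was the highest in both groups, the opposite of the heme importers. The difference was -4.48 ± 0.36 (SE; adjusted p 8.15e-04 by limma, and 0.14 without number 2), and the values at 20 µM were below the 25th percentile of their arrays (3.56 to 3.80), so its 22.4-fold change is limited by the floor too. R193.2 (184144_at) had log2 values of 9.60, 9.58 and 8.28 at 4 µM and 5.83, 5.2 and 4.98 at 20 µM. The difference was -3.82 ± 0.23 (SE; adjusted p 7.67e-05 by limma). A second, dimmer probe set of R193.2, 178464_at, differed by -1.13 ± 0.37 and did not pass (adjusted p 1); its values at 20 µM were 2.26 to 2.36.

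The detoxification gene gsto-1 (175993_at), an omega-class glutathione transferase, had log2 values of 11.78, 11.97 and 11.77 at 4 µM and 9.16, 9.61 and 8.30 at 20 µM. It fell by 2.82 ± 0.24 on the log2 scale (difference -2.82, SE; adjusted p 0.00111 by limma), a call that ended without number 1 (adjusted p 0.184) or number 2 (0.14). Of the 45 measured glutathione S-transferases it was the 1 that fell, beside 0.0621% of all probe sets; 44 did not pass, and the list's median was 0.05 beside -0.0049 over all probe sets. The next by size in that family was gst-17, at 5.42, 5.48 and 6.03 at 4 µM and 3.43, 4.11 and 3.70 at 20 µM, with a difference of -1.90 ± 0.40 (SE) and an adjusted p of 0.689 by limma. The groups of gst-17 did not overlap.

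Among the 33 gut and lysosomal protease genes 2 fell, beside 0.0621% of all probe sets. The cathepsin B-like gene cpr-8 (189227_at) had log2 values of 10.51, 10.43 and 9.66 at 4 µM and 7.95, 7.46 and 7.54 at 20 µM, a difference of -2.55 ± 0.28 (SE; adjusted p 0.00931 by limma, 0.154 without the block). The call of cpr-8 ended without number 1 or 2 and without any single wildtype array other than array 3 at 20 µM (adjusted p 0.0667 to 1). The serine carboxypeptidase gene ctsa-4.1 (189861_at), of the cathepsin A kind, had 11.83, 12.16 and 11.60 at 4 µM and 9.98, 10.11 and 9.39 at 20 µM. It fell by 2.04 ± 0.16 on the log2 scale (difference -2.04, SE; adjusted p 7.13e-04 by limma; 0.199 without number 1 and 0.359 without number 2), while its relative ctsa-4.2 differed by -0.84 ± 0.29 and did not pass. Elsewhere in the list the aspartic protease genes asp-7, asp-8 and asp-17 had non-overlapping groups without passing, at -0.95, -0.50 and -0.78, and asp-14 differed by 1.61 ± 0.45 in the other direction with overlapping groups. The list's median was 0.04, with 20 positive and 13 negative differences.

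Both remaining genes that fell had higher levels at 4 µM on every array. For tag-10 (191470_s_at) the log2 values were 10.93, 10.98 and 9.27 at 4 µM and 8.85, 8.39 and 7.82 at 20 µM. Its pairs differed by -2.08, -2.59 and -1.45, the fitted difference was -2.04 ± 0.22 (SE; adjusted p 0.00854 by limma, 1 without the block), and its second probe set, 191469_at, passed as well at -2.08 ± 0.28 (adjusted p 0.0400). Both tag-10 calls ended without number 1 or 2, or without wildtype array 1 or 2 at either concentration (adjusted p 0.0656 to 1). Y54G11A.7 (185954_at) had 10.76, 11.13 and 10.65 at 4 µM and 9.34, 9.37 and 8.94 at 20 µM. Its difference of -1.63 ± 0.19 (SE; adjusted p 0.0148 by limma) was the smallest among the genes that fell, and the call ended without number 1 or 2 or any single wildtype array (adjusted p 0.0806 to 1).

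**Figure D3:**
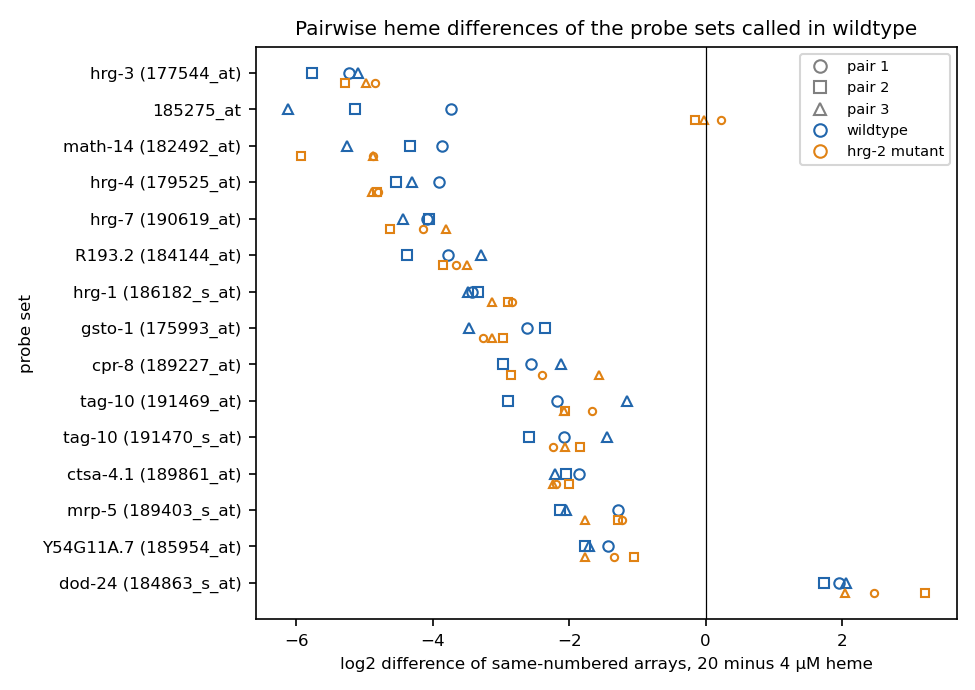
Difference in log2 expression between same-numbered arrays at 20 and 4 µM heme (horizontal axis) for the 15 probe sets past the threshold in wildtype, with wildtype pairs in blue and, just below them, hrg-2 mutant pairs in orange; the shape gives the pair. All wildtype pairs of a probe set lie on 1 side of 0, and the mutant pairs lie on the same side for 14 of the 15, the exception being 185275_at, whose mutant pairs lie around 0.

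The 1 gene that rose, dod-24, encodes a CUB-like domain protein known from infection responses and as a gene downstream of the insulin pathway factor DAF-16. Its probe set 184863_s_at had log2 values of 7.84, 7.44 and 5.65 at 4 µM and 9.80, 9.17 and 7.71 at 20 µM. Array 3 at 20 µM lay below array 1 at 4 µM, so the groups overlapped, while the pairs differed by 1.96, 1.73 and 2.06. The fitted difference was 1.92 ± 0.23 (SE), 3.78-fold, and its adjusted p by limma was 0.0163 with the block and 1 without it. The call of dod-24 ended without number 1 or 2 or any single wildtype array (adjusted p 0.114 to 1). Since its groups overlap, dod-24 lies outside the rule for named genes and was named after its value was seen.

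No other gene was higher past the threshold, and taking genes by their probe set of highest mean, the 5 next in line by p with non-overlapping groups were rhy-1, Y44A6C.1, clec-140, F45E1.4 and kpc-1. The first, rhy-1, a membrane protein gene that restrains the hypoxia factor HIF-1, had log2 values of 8.6, 8.48 and 7.93 at 4 µM and 10.74, 10.37 and 8.65 at 20 µM. Its pairs numbered 1 and 2 differed by about 2 log2 units and pair 3 by 0.72, and the fitted difference was 1.58 ± 0.33 (SE; adjusted p 0.683 by limma). For the proprotein convertase gene kpc-1 (172920_x_at) the difference was 1.08 ± 0.27, and its other 3 probe sets differed in the same direction by 0.33 to 1.22. The differences were 1.01 ± 0.23 for Y44A6C.1, 0.85 ± 0.20 for the C-type lectin gene clec-140, which was dim at 3.47 to 4.97, and 0.87 ± 0.21 for F45E1.4 (0.92 for its second probe set). None of these 5 had an adjusted p under 0.683. A dimmer probe set of unc-23, 188334_at, had a smaller p than any of them. Its log2 values were 8.54, 8.77 and 7.78 at 4 µM and 9.44, 9.63 and 8.92 at 20 µM, groups that did not overlap, and the difference of 0.97 ± 0.17 (SE) had an adjusted p of 0.238 by limma. The probe set of highest mean of unc-23 differed by 0.39 ± 0.23 with overlapping groups. A dimmer probe set of mml-1 followed at 1.16 ± 0.24 (adjusted p 0.626), and both were named after their values were seen.

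Probe set 185275_at, which the annotation pairs with no gene, had the second largest change. Its log2 values were 8.79, 10.07 and 9.32 at 4 µM and 5.06, 4.93 and 3.2 at 20 µM. The difference was -5.0 ± 0.36 (SE; adjusted p 3.78e-04 by limma). In the mutant it was 3.55, 4.00 and 3.19 at 4 µM and 3.78, 3.84 and 3.17 at 20 µM, all below every wildtype value at 4 µM, and the mutant's difference was 0.01 ± 0.36. These mutant values lay around the 25th percentile of the mutant arrays (3.60 to 3.82). The floor of the signal thus limits how far a fall could show in the mutant, and with it the comparison of heme effects. In wildtype the adjusted p was 0.14 without number 2. The difference between the genotypes' heme effects was -5.01 ± 0.51, and its adjusted p of 0.0530 by limma was the smallest of all probe sets and missed the threshold. It passed in 5 of the 16 other settings in which this difference was fitted, among them those without number 3 (-4.47 ± 0.44, adjusted p 0.0121) and without wildtype array 1 at 4 µM (adjusted p 0.0167) or at 20 µM (0.0295), and its adjusted p ran from 0.0121 to 1 over the 16.

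For the remaining calls, the mutant arrays gave the same direction. In the mutant 18 probe sets (0.0798%) passed by the same fit, and 12 passed in both genotypes, which is 80% of the wildtype calls and 66.7% of the mutant's, all with the same sign. Both comparisons share the block and the error estimate of each probe set, so passing in both is not independent replication. The mutant differences were -2.95 for hrg-1, -5.03 for hrg-3, -4.83 for hrg-4, -4.19 for hrg-7, -5.23 for math-14, -3.67 for R193.2, -3.12 for gsto-1 and 2.58 for dod-24, with SEs of 0.16 to 0.36. Besides 185275_at, the wildtype calls that did not pass in the mutant were mrp-5 (189403_s_at, -1.43, adjusted p 0.0763) and the second probe set of tag-10 (-1.93, adjusted p 0.0539). The test of the difference between the genotypes' heme effects called 0 probe sets by limma, with 727 at an unadjusted p under 0.05. It called 310 without the arrays numbered 3, 1 with array weights, with the trend and robust prior, or without wildtype array 1 at either concentration, and 0 in the other settings in which it was fitted. A p above the threshold does not show that the genotypes responded alike.

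UDP-glucuronosyltransferases, which attach sugars to small molecules for excretion, gave 0 of 64 past the threshold, beside 0.0665% of all probe sets. That 0 is no result about them, since few or no calls fall among 64 genes at that share. Of the 64 differences 43 were negative, and the list's median was -0.12. All 12 members with an unadjusted p under 0.05 were lower at 20 µM, by -2.02 to -0.53, beside 1.78% of all probe sets lower and 1.28% higher at that p, and 7 members had groups that did not overlap, all of them lower, beside 4.04% of all probe sets. The member of smallest p, ugt-17 (191689_s_at), had log2 values of 8.98, 9.42 and 9.75 at 4 µM and 7.50, 8.04 and 7.10 at 20 µM, a difference of -1.84 ± 0.30 (SE; adjusted p 0.164 by limma). In the mutant ugt-17 fell by 2.37 on the log2 scale (difference -2.37 ± 0.30, adjusted p 0.0216). For ugt-13 the values were 8.15, 8.17 and 7.83 at 4 µM and 6.63, 7.09 and 4.36 at 20 µM, and for ugt-16 they were 6.90, 7.23 and 5.8 at 4 µM and 5.08, 4.90 and 4.48 at 20 µM. Neither passed, and of the 12 members 11 had a negative difference in the mutant as well. On arrays numbered 3, the list's median was lower by 0.50 at 4 µM (-0.50) and by 0.54 at 20 µM (-0.54), an offset shared by both groups.

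Genes that use heme or handle iron had 0 members past the threshold by limma with the block, beside 0.0665% of all probe sets. At that share few or no calls fall in lists of this size, so the 0 is no result about these genes. The list medians were -0.06 for 25 heme proteins other than globins and P450s, -0.07 for 30 globins, 0.02 for 73 cytochrome P450s and 0.02 for 38 respiratory chain and ATP synthase genes. The catalase gene ctl-2 differed by 0.71 ± 0.22 and the peroxidase gene skpo-3 by -0.56 ± 0.28; among globins glb-5 differed by -0.58 ± 0.20, at values of 3.08 to 3.89, and glb-18 by -0.36 ± 0.19. For P450s the smallest p belonged to cyp-33C9 (-0.74 ± 0.22) and cyp-36A1 (1.01 ± 0.33), and in the respiratory chain to the assembly genes cox-10 (0.33 ± 0.22) and cox-11 (0.33 ± 0.24). Of 14 iron genes the median was 0.01. The ferritin gene ftn-1 had log2 values of 7.97, 8.01 and 9.04 at 4 µM and 8.42, 8.11 and 8.05 at 20 µM, with overlapping groups and a difference of -0.15 ± 0.63. The HIF prolyl hydroxylase gene egl-9, listed with them for its iron cofactor, differed by 0.96 ± 0.42 with non-overlapping groups, and the cytosolic aconitase gene aco-1 by 0.29 ± 0.18. Among 13 metal response genes, with a median of -0.05, cdr-1 differed by -0.63 ± 0.29 and cdr-6 by 0.50 ± 0.31.

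In 4 further lists of transport, stress and defence genes 0 members passed, beside 0.0665% of all probe sets. Such lists hold few or no calls at that share, so the 0 is no result about them. The 53 ABC transporters, with mrp-5 entered by 174713_at, had a median of -0.02, and pgp-13 followed mrp-5 at -0.57 ± 0.17. For 27 oxidative stress defence genes the median was -0.02, with sod-4, an extracellular superoxide dismutase, at 0.30 ± 0.18. The 42 lysozyme, saposin-like and infection response genes had a median of 0.04, with the saposin-like gene spp-6 at -1.16 ± 0.33 and irg-4 at 0.69 ± 0.24. Among 18 hypodermal antimicrobial peptide genes, with a median of -0.14, cnc-2 differed by -0.61 ± 0.24 and cnc-7 by -0.55 ± 0.34.

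The 22 heat-shock protein genes also had 0 members past the threshold, beside 0.0665% of all probe sets. Here too the list is too small for that 0 to be a result about these genes. Their median of 0.21 was the second highest of the lists, after vitellogenins. By pair the median was 0.17 in pair 1, 0.13 in pair 2 and -0.05 in pair 3. The small heat-shock gene hsp-16.41 had log2 values of 5.29, 5.29 and 6.56 at 4 µM and 8.16, 8.01 and 6.35 at 20 µM. The inducible chaperone gene hsp-70 had 7.13, 6.05 and 8.55 at 4 µM and 10.08, 10.23 and 8.39 at 20 µM. In both genes the pairs numbered 1 and 2 were higher at 20 µM by 2.72 to 4.18 log2 units, and pair 3 was slightly lower. The mean log2 level of the 22 genes ran from 8.09 to 8.20 over the arrays at 4 µM and from 8.21 to 8.84 at 20 µM. The ER chaperone gene hsp-4 differed by 0.54 ± 0.19 in the fit over all arrays.

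Without the arrays numbered 3 the comparison gave 92 probe sets past the threshold by limma, 39 lower and 53 higher, and these included all 15 of the fit over all arrays. Without number 3 the differences were -3.38 for hrg-1, -5.50 for hrg-3, -4.22 for hrg-4 and -4.07 for hrg-7. Of the 77 further calls, 25 were lower and 52 higher. In pair 3, 43 of the 77 (55.8%) had the same sign, against 15 of the 15. The fit that called the 15 included pair 3, and the 77 are probe sets that did not pass with it. This contrast thus follows largely from how the sets were chosen. Of the 22 listed heat-shock genes 4 were called higher and 0 lower, beside 53 higher and 39 lower of 22548 probe sets. The heat-shock genes hsp-16.41, hsp-16.2, hsp-70 and hsp-12.3 were among the 52, at 2.80 ± 0.22, 3.09 ± 0.45, 3.57 ± 0.35 and 1.99 ± 0.19, with differences of -0.20, 0.08, -0.16 and -0.42 in pair 3. So was the chaperone gene hsp-110 by its dimmer probe set (1.54 ± 0.20, and 0.62 in pair 3), while the list holds it by its other probe set. The nuclear receptor gene nhr-17 stood at 5.96 and 6.22 at 4 µM and 9.65 and 9.86 at 20 µM on arrays 1 and 2, and at 6.34 and 6.52 on array 3. The acyl-CoA synthetase gene acs-2 (192195_at) differed by 2.14, 4.24 and 0.54 in the 3 pairs, and rhy-1 by 2.14, 1.89 and 0.72. Among the lower ones were ugt-16, ugt-21, gst-17, probe set 174713_at of mrp-5 (-1.34 ± 0.20, adjusted p 0.0342) and fpn-1.1, a ferroportin-like iron exporter gene (-1.33 ± 0.21, and -0.69 in pair 3). The genes shown from these 92 were chosen after their values were seen, and the part of the array 3 shift in them was not tested.

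**Figure D4:**
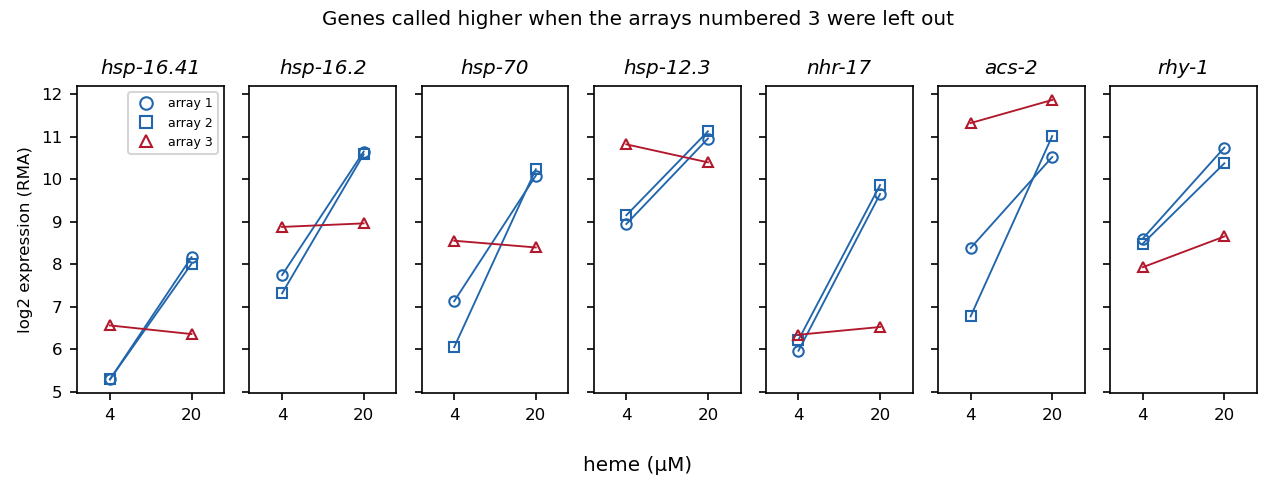
Log2 expression (vertical axis) at 4 and 20 µM heme (horizontal axis) of 7 genes called higher when the arrays numbered 3 were left out; lines join same-numbered wildtype arrays, with arrays 1 and 2 in blue and array 3 in red. Arrays 1 and 2 are higher at 20 µM in every panel, while array 3 changes by -0.42 to 0.72.

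Markers of tissues and stages gave 0 calls, beside 0.0665% of all probe sets, and their mean levels overlapped between the groups. Few or no calls fall in lists of this size at that share, so the 0 does not show that tissues and stages were alike. The medians were 0.02 for 20 intestinal genes, -0.07 for 19 hypodermal, 0.01 for 28 muscle, -0.06 for 29 neuronal and 0.04 for 29 germ line genes, 0.13 for 69 sperm genes and -0.02 for 23 oocyte and eggshell genes. Some of these medians hold pairs of opposite sign. In pairs 1, 2 and 3 the hypodermal median was 0.05, -0.53 and 0.42, and the sperm median -0.13, 0.52 and -0.02. The neuronal median was -0.13, -0.16 and -0.09. The mean log2 level of the intestinal genes ran from 9.96 to 10.83 over the arrays at 4 µM and from 10.18 to 10.74 at 20 µM, that of the hypodermal genes from 8.70 to 8.85 and from 8.28 to 9.15, and that of the sperm genes from 6.00 to 8.67 and from 6.48 to 8.65. Defining markers were measured on these arrays, such as the gut regulators elt-2 (-0.44 ± 0.33) and elt-7 (0.27 ± 0.19). The vitellogenins had the highest median of the lists, 0.91 over 5 genes, but it was 0.04, 0.50 and 2.08 in pairs 1, 2 and 3; vit-5 stood at 9.29, 7.17 and 5.88 at 4 µM and 9.33, 7.53 and 9.26 at 20 µM.

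The other lists had small medians as well, with 0 members past the threshold, beside 0.0665% of all probe sets. With so small a share, the 0 is no result about these lists either. Ribosomal protein genes had a median of -0.08 over 62 genes, 48 of them negative. Of the 62, 8 had groups that did not overlap, all lower at 20 µM, beside 4.04% of all probe sets. The gene rps-10 was not among the 8. Its values were 13.10, 12.99 and 13.32 at 4 µM and 12.88, 12.76 and 13.03 at 20 µM, with overlapping groups. The mean level of the ribosomal protein genes, 12.43 to 12.58 at 4 µM and 12.38 to 12.47 at 20 µM, overlapped between the groups. The medians were 0.02 for 145 cuticle collagens, -0.05 for 21 molting genes, 0.00 for 91 lipid metabolism genes (-0.0047), 0.07 for 33 proteasome subunits and -0.15 for 16 heterochronic genes, in which lin-46 differed by -0.67 ± 0.29 and hbl-1 by -0.37 ± 0.23. In pairs 1, 2 and 3 the molting median was 0.13, -0.42 and 0.24, and the proteasome median -0.12, -0.15 and 0.34. Over all its probe sets the molting median was 0.05. The heterochronic median was -0.17, -0.22 and -0.11 by pair.

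**Figure D5:**
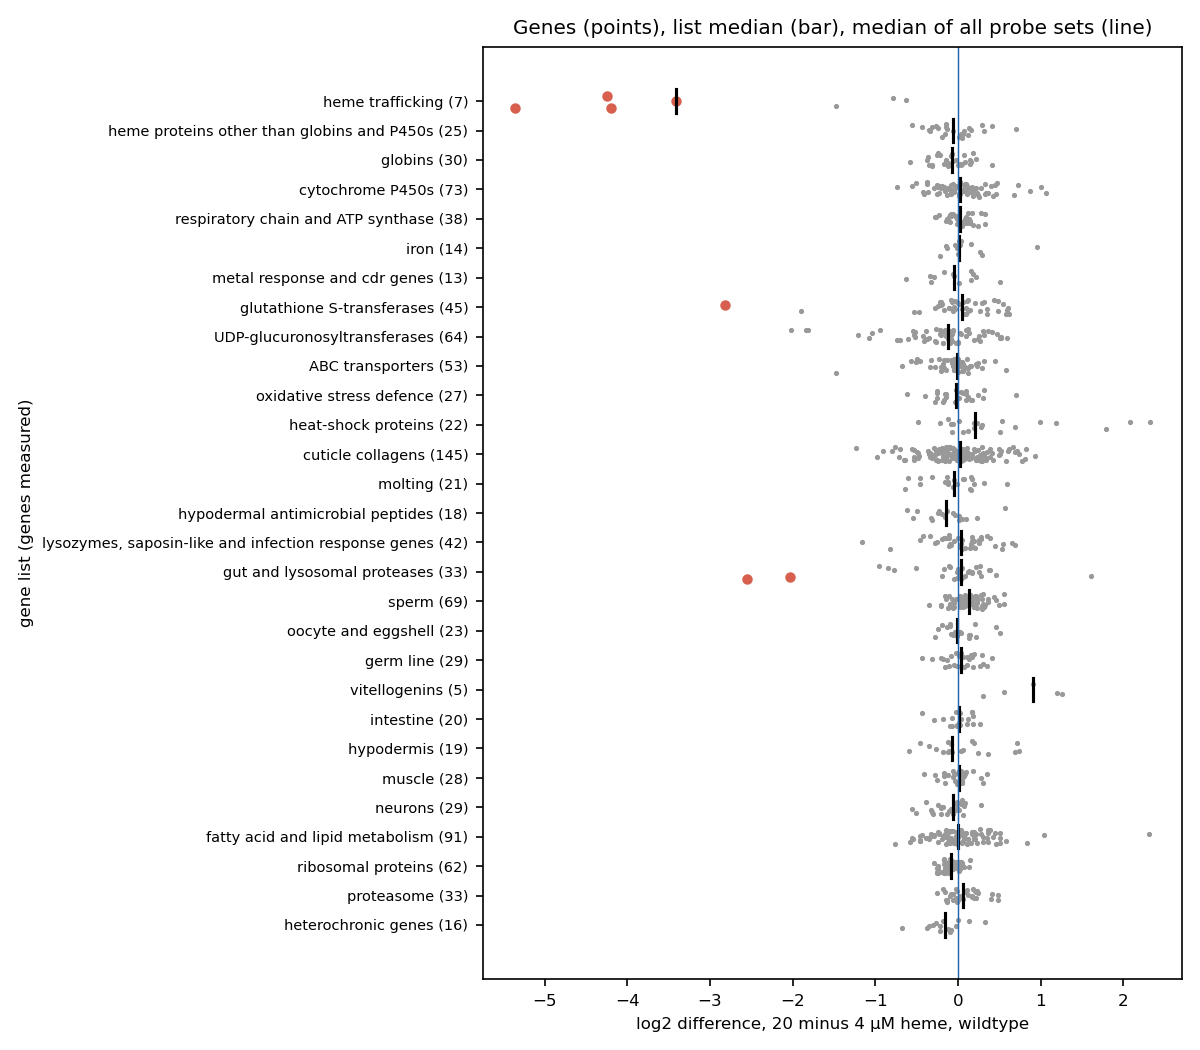
Log2 difference between 20 and 4 µM heme in wildtype (horizontal axis) of each measured gene in 29 gene lists (rows, with the number of genes), with genes past an adjusted p of 0.05 in red, the list median as a black bar and the median of all probe sets, -0.0049, as a blue line. Red points occur in 3 lists: heme trafficking (4), glutathione S-transferases (1) and gut and lysosomal proteases (2).

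Of the measured chromosomal neighbours of the genes that changed, 0 passed the threshold, beside 0.0665% of all probe sets. At that share few or no calls fall among so few genes, so the 0 is no result about neighbours. In RefSeq's order of genes on the assembly WBcel235, the 12 genes past the threshold by their probe set of highest mean have 24 direct neighbours, of which 19 are measured, and the adjusted p by limma was 1 for each. The neighbours' differences ran from -1.10 for math-15, beside math-14, to 0.71 for ctl-2, beside Y54G11A.7, with a median of -0.05. The protease gene cpr-5, next to cpr-8, differed by -0.09 ± 0.18, and gst-18, next to tag-10, by -0.11 ± 0.19. The neighbours of hrg-4 are hrg-5 and hrg-6, which have no probe set of their own.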

How the data were processed

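Expression was measured on 12 Affymetrix arrays. The deposited values are log2 expression values made by the authors with RMA (background subtraction, normalization between arrays and probe summary) run, per the submitters' processing notes, in Partek 6.5; the sources used here give no further settings. Of 22625 rows, 77 controls were left out. Gene names came from the platform annotation, with 20810 probe sets paired with 1 symbol, 843 with several and 895 with none; 20745 matched RefSeq, and those with several symbols name no gene. Genes are shown by their probe set of highest mean over the 12 arrays. Probe sets whose ID ends in _s_at or _x_at can match more than 1 transcript, so related genes may share their signal.

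One limma 3.58.1 model (R 4.3.3, lmFit and eBayes, two-sided) of 4 group means with the array number as a fixed block was fitted to all 12 arrays (6 residual and 3.79 prior degrees of freedom), with Benjamini-Hochberg adjustment over 22548 probe sets at 0.05. It was tested on simulated data. Every p printed is limma's. Errors are SEs, and folds are powers of 2.

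The array number was set as a block by the rule of the comparison, and the labels do not state that it pairs the arrays. Deviations from group means of same-numbered wildtype arrays correlated at r from 0.517 to 0.817 in the 3 pairs. Those of differently numbered arrays correlated at -0.792 to 0.516. Array 1 at 4 µM correlated nearly alike with arrays 1 and 2 at 20 µM, at 0.517 and 0.516. An array 3 that stands apart in both groups gives such signs by itself, so these values cannot show that numbers 1 and 2 are pairs.

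The rule for named genes took all measured heme trafficking genes, up to 15 falls and 15 rises past the threshold with non-overlapping groups and 3 pairs in 1 direction (filled up to 5 by p where fewer passed), up to 4 passing members or the 2 of smallest p of each of 29 gene lists, and up to 2 probe sets without a gene. Some list members beyond it are given as values. The comparison, lists and rule were chosen with earlier results of these data known. Lists are described by counts and medians, with no test. Alternatives changed the block, scaling, filter, weights, prior and arrays.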

Additional observations from a re-analysis of the deposited data

Results flagged for a closer look

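Among the named genes, 2 had every wildtype pair of arrays moving one way with heme and every mutant pair the opposite way. The other list members were not searched for this pattern. Its share over all probe sets was not taken, so the count is no result about these genes. The hypodermal antimicrobial peptide gene cnc-2 differed by -0.61 between 20 and 4 µM in wildtype and by 0.58 in the mutant, a difference of heme effects of -1.20 ± 0.34 (SE). The ribosomal protein gene rps-21 differed by -0.25 in wildtype and 0.17 in the mutant, a difference of -0.42 ± 0.22, while its second probe set differed by -0.001 in wildtype. The test of the difference by limma gave an adjusted p of 0.997 for each gene, so neither passed.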

How the results depend on the processing

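All 15 calls kept their sign in each of the 18 other settings that tested them, and hrg-3, hrg-4, hrg-7 and R193.2 passed wherever they were tested (hrg-3, math-14 and 185275_at fall out of the filter above the median mean). Without the replicate block 8 probe sets passed (8 lower, 0 higher; hrg-1, cpr-8, Y54G11A.7, tag-10, mrp-5 and dod-24 were lost), with the number as a random effect 11 (0 higher), with no moderation 6 (6 lower, 0 higher; hrg-1, hrg-3, hrg-4, hrg-7, R193.2 and ctsa-4.1) and with array weights 473 (276 lower, 197 higher). Leaving out numbers or single wildtype arrays gave 5 to 92 calls (5 to 39 lower, 0 to 53 higher). Number 3 decided the upper end: 92 without it, 7 without number 1 and 5 without number 2, and 9 to 13 without single wildtype arrays. Leaving out each of the 6 wildtype arrays lost dod-24, Y54G11A.7 and mrp-5 each time, cpr-8 in 5 and both tag-10 probe sets in 4 of the 6. All of these were also lost without number 1 or 2, with gsto-1 and ctsa-4.1, and without number 2 also math-14 and 185275_at. Median centring, a repeated quantile step and the trend with a robust prior left 15 calls, and the wildtype arrays alone gave 13. The difference between genotypes, 0 calls, became 1 with array weights and 1 with the trend and robust prior, and 0 to 310 when arrays were left out (310 without number 3). Directions turned for cnc-7 without number 3 (0.0703, in a range down to -0.92) and for vit-5 and vit-4 without wildtype array 3 at 4 µM, at -0.46 (range up to 2.32) and -0.61 (up to 2.38). The cause was not tested. Signal near the floor limits the folds of hrg-3 and math-14, and the mutant's difference for 185275_at.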
